A study of Mus musculus with 18 samples.

Results

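The miR-34 family of mouse kidney was followed through mmu-miR-34a-5p, mmu-miR-34b-5p and mmu-miR-34c-5p (mmu for mouse), the 3 rows of a small RNA count table that carry these names, out of 1534 rows, of which 1184 were named. The table covered 18 kidney libraries in 3 groups of 6. The treated group was C57BL/KsJ mice with diabetic nephropathy (DN) that received germacrone, a sesquiterpene of Curcuma plants, at 10 mg/kg/day. DN mice of the same strain, C57BL/KsJ, had 0.9% saline instead, and so did the C57BL/6J control mice. The labels give no age and no allele. Whether the libraries came from different animals is not stated, and the spread behind each p-value below may therefore be partly or wholly technical. Both DN groups are of a strain that the controls lack, so a difference from control may be one of strain or of disease, and the design cannot separate these. Treated and control mice differ in germacrone as well, so that comparison cannot separate strain, disease and drug.

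The miR-34 genes are direct transcriptional targets of p53, the transcription factor that responds to DNA damage and cell stress. Their 5p strands lower the output of genes for cell cycle entry and survival, such as Cdk6, Ccnd1, Met and Bcl2. Mir34a is transcribed from its own locus and is expressed in many tissues, whereas Mir34b and Mir34c lie close together, are made from a shared primary transcript and are known for high expression in airway, oviduct and testis. The 5p strands of Mir34a, Mir34b and Mir34c share a seed, the bases that pair with target mRNAs. The miR-449 miRNAs carry it too and are typical of multiciliated epithelia.

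The mature sequences show what the family shares and where the arms differ. They come from RefSeq (GRCm38.p6) and are written 5′ to 3′ with the seed, bases 2 to 8, in capitals.
miR-34a-5p: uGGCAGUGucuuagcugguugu
miR-34b-5p: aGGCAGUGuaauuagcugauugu
miR-449a-5p: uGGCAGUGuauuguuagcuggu
miR-449c-5p: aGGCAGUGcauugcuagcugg
miR-34a-3p: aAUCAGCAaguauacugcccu
miR-34b-3p: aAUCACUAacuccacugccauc
miR-34c-3p: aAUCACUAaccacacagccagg
The 4 printed 5p strands have 1 seed in common. The sequence set used had no entry for miR-34c-5p, so its sequence and seed are not shown. Compared base by base from the 5′ end without gaps, miR-34a-5p and miR-34b-5p had the same base at 11 of 22 positions. That count understates how alike they are: miR-34b-5p is longer (23 bases against 22), and a stretch after the seed that both hold is shifted. It is therefore not comparable with the count for the 3p strands. The 3p strands of Mir34b and Mir34c also share a seed and had the same base at 17 of 22 positions. The 3p strand of Mir34a has another seed.

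Mir34a lies at chr4:150068454-150068555 on the plus strand, where GENCODE M21 also places an exon of Gm37795 on the same strand. Mir34b (chr9:51103562-51103645) and Mir34c (chr9:51103034-51103110) lie on the minus strand with 451 bases between the hairpins, inside a Btg4 transcript annotated on the opposite strand and in none of its exons. In the hairpins below the annotated mature strands are in capitals, and they are shown because the genes differed in the named strand that held most reads.
Mir34a: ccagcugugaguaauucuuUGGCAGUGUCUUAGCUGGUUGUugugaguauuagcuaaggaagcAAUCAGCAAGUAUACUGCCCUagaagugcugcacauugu
Mir34b: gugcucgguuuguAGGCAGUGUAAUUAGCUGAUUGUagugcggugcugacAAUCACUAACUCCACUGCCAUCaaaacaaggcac

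Total counts were 3657879 to 5972069 in treated, 3645173 to 7239343 in DN and 3700672 to 6654035 in control libraries. Levels are given as CPM, the read count scaled to a common library size. Every listed kidney tubule miRNA (6 of 6) was in the table, and their summed level was 155500 to 218400 CPM in treated, 55030 to 201000 in DN and 100500 to 158300 in control libraries. In these whole-tissue libraries, fewer cells of a type and less RNA per cell cannot be told apart. A library's median correlation with its group, over log2 CPM, was lowest for DN 2 (0.896), DN 3 (0.926) and control 2 (0.946), and for the remaining 15 libraries it was 0.958 or more. The log2 fold changes of the 3 members are given with and without these 3 libraries. All 7 listed leukocyte miRNAs were in the table, and their sum was 1847 to 9117 CPM in treated, 1589 to 25950 in DN and 3176 to 4225 in control libraries, with the DN maximum in DN 2 and the next DN library at 2360. All 7 injury and fibrosis miRNAs were present too, at a sum of 42250 to 126300 CPM in treated, 25830 to 197400 in DN and 15040 to 50540 in control libraries, with the DN maximum again in DN 2 and the next at 75180. The 4 nerve and endocrine miRNAs summed to 549.6 to 767.6 CPM in treated, 429 to 647.5 in DN and 353 to 973 in control libraries, with the control maximum in control 4 and the next at 517.5. None of these markers was at 0 in all libraries of a group.

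The 3 members had very different read levels, and all 3 were counted in all 18 libraries. A read covers a whole mature miRNA, so no length correction applies, but adapter ligation and amplification can differ between sequences. Orders, shares and ratios between members are therefore of reads, not of molecules. miR-34a-5p averaged 786.5 CPM over all libraries and ranked 87 among 902 names, miR-34c-5p averaged 207.5 CPM at rank 153, and miR-34b-5p averaged 3.54 CPM at rank 447. Of the reads given to the 3 members, miR-34a-5p took 80.1% ± 4.41 in treated, 76.7% ± 7.59 in DN and 76.1% ± 7.26 in control libraries (SD, n = 6 each). The share of miR-34c-5p was 19.5% ± 4.29 in treated, 22.9% ± 7.45 in DN and 23.5% ± 7.11 in control libraries. miR-34b-5p made up 0.141% to 0.812% of a library's family reads. The order was the same in every library: miR-34a-5p exceeded miR-34c-5p by 1.89 to 8.12 times, and miR-34c-5p exceeded miR-34b-5p by 28.6 to 126 times. Raw counts were 1359 to 8077 for miR-34a-5p, 478 to 2054 for miR-34c-5p and 8 to 33 for miR-34b-5p. Counting error alone was therefore 1.11% to 2.71% of the value for miR-34a-5p, 2.21% to 4.57% for miR-34c-5p and 17.4% to 35.4% for miR-34b-5p, whose differences are the least precise.

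**Figure D1:**
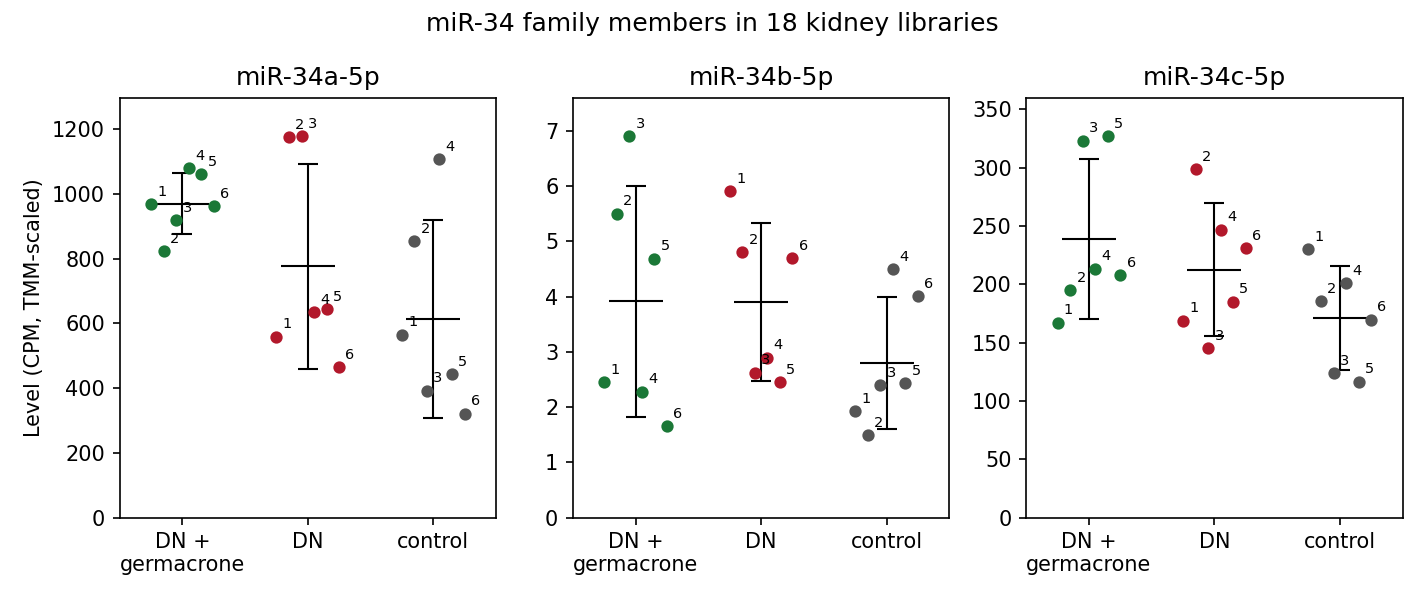
Level in CPM (linear axis from 0) of each member in each library, by group, with the replicate number beside each point and the mean and SD in black (n = 6 a group). Treated libraries lie close together for miR-34a-5p, at 824 to 1080 CPM, while DN and control libraries spread widely and overlap them.

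miR-34a-5p is the abundant member and the one most studied as a p53 target. It ranged from 824 to 1080 CPM in treated libraries with a median of 965.5, from 465 to 1179 CPM in DN libraries with a median of 639.9, and from 321 to 1107 CPM in control libraries with a median of 505. Group means were 969 ± 94.3 CPM in treated, 776 ± 317 in DN and 614 ± 306 in control kidneys (SD, n = 6 each). The groups overlapped: 4 of 6 DN and 4 of 6 control libraries lay below the lowest treated library, while DN 2 and DN 3, at 1175 and 1179 CPM, and control 4, at 1107 CPM, lay above the highest treated one. The spread differed as a description, with a coefficient of variation of 9.73% in treated, 40.8% in DN and 49.8% in control libraries. It was not compared with the spread of all entries. Other miRNAs varied in this. The SD of miR-16-5p was 561 CPM in treated, 1789 in DN and 1414 in control libraries. That of miR-22-3p was 2129 CPM in treated, 2206 in DN and 1311 in control libraries.

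In treated against control kidneys the log2 fold change (log2FC) of mmu-miR-34a-5p was 0.66 (SE 0.291, 95% interval 0.05 to 1.27, 1.58-fold), and 6 of 6 treated libraries lay above the control median. Its unadjusted p was 0.0362 and its adjusted p 0.234 by edgeR's quasi-likelihood test with Benjamini-Hochberg adjustment over all 619 entries tested, so it did not pass the threshold of 0.05. In this comparison 0% of the entries passed after adjustment and 19.5% had an unadjusted p under 0.05, as had 1 of 3 members. Groups that did not overlap were found for 5.17% of entries and for 0 of 3 members. The listed kidney tubule miRNAs had a log2FC above 0 for 6 of 6 (49.8% of all entries), with a median of 0.54. Of these 6, 4 had an unadjusted p under 0.05 and 0 passed the threshold. The part of the tubule miRNAs in the result was not tested. With limma-voom and sample weights miR-34a-5p did pass, at a log2FC of 0.96 and an adjusted p of 0.00715. Without control 2, DN 2 and DN 3 the log2FC was 0.77 at an adjusted p of 0.0543, and without control 4 it was 0.90 at 0.164; over all alternatives the adjusted p ran from 0.00715 to 0.411.

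In treated against DN kidneys mmu-miR-34a-5p had a log2FC of 0.32 (SE 0.291, 95% interval -0.29 to 0.93, adjusted p = 0.809). All 6 treated libraries lay above the DN median. In this comparison 0% of entries passed and 3.72% had an unadjusted p under 0.05. The log2FC was 0.75 without control 2, DN 2 and DN 3 (adjusted p = 0.954), 0.18 without DN 6, the lowest DN library, and 0.14 with library size as the only scaling. In DN against control kidneys the log2FC was 0.34 (SE 0.291, 95% interval -0.27 to 0.95, adjusted p = 0.820), with 5 of 6 DN libraries above the control median, 0% of entries past the threshold and 7.59% at an unadjusted p under 0.05. That difference was 0.02 without control 2, DN 2 and DN 3, 0.62 without control 4 and 0.21 without control 6, the lowest control. The leukocyte and injury miRNAs of DN 2 and the nerve and endocrine miRNAs of control 4 were high where miR-34a-5p was high too. In DN 3, the highest for miR-34a-5p at 1179 CPM, the leukocyte sum was at most 2360 CPM and the injury sum at most 75180. Treated 6 had the highest treated leukocyte and injury sums, 9117 and 126300 CPM, at 962 CPM of miR-34a-5p. Control 6, the lowest control for miR-34a-5p at 321 CPM, had the highest control injury sum, 50540 CPM. The part of these miRNAs in these values was not tested.

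miR-34c-5p held most reads of the chromosome 9 pair and acts on the same seed matches. It ranged from 167 to 327 CPM in treated libraries with a median of 211, from 145 to 299 CPM in DN libraries with a median of 208, and from 117 to 230.2 CPM in control libraries with a median of 177. Treated 3 and treated 5, at 323 and 327 CPM, were the highest libraries of all, and the groups overlapped. Means were 239 ± 68.6 CPM in treated, 213 ± 56.9 in DN and 171 ± 44.3 in control kidneys (SD, n = 6 each). The log2FC of mmu-miR-34c-5p in treated against control kidneys was 0.48 (SE 0.233, 95% interval -0.0057 to 0.97, unadjusted p = 0.0529, adjusted p = 0.260), with 5 of 6 treated libraries above the control median. Treated against DN gave 0.17 (SE 0.233, adjusted p = 0.895) and DN against control 0.31 (SE 0.233, adjusted p = 0.768), by the same edgeR test. Treated against DN was 0.01 without treated 5, 0.02 without treated 3, 0.05 without DN 1 and 0.26 without DN 2, and DN against control was 0.22 without DN 2 and 0.48 without DN 1. Without control 2, DN 2 and DN 3 together, the log2FC was 0.48 in treated against control, 0.19 in treated against DN and 0.30 in DN against control. The means ran in the order treated, DN, control, and no neighbours in that order differed beyond their spread.

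miR-34b-5p was near the lower end of what the libraries resolved. It ranged from 1.65 to 6.91 CPM in treated libraries with a median of 3.57, from 2.455 to 5.91 CPM in DN libraries with a median of 3.79, and from 1.49 to 4.49 CPM in control libraries with a median of 2.42. The groups overlapped throughout, and the highest value, in treated 3, rested on 22 reads. The log2FC of mmu-miR-34b-5p was 0.48 (SE 0.428, adjusted p = 0.581) in treated against control, -0.00068 (SE 0.424, adjusted p = 0.9995) in treated against DN and 0.48 (SE 0.426, adjusted p = 0.820) in DN against control kidneys by the same edgeR test. Without control 2, DN 2 and DN 3 it was 0.31 in treated against control, -0.05 in treated against DN and 0.37 in DN against control. Treated against control ran from 0.30 without treated 3 to 0.69 without treated 6, and DN against control from 0.40 without control 1 to 0.70 without control 4. The 95% interval for treated against DN, -0.89 to 0.89, leaves differences of either sign possible, so these counts do not show miR-34b-5p to be the same in the 2 groups.

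**Figure D2:**
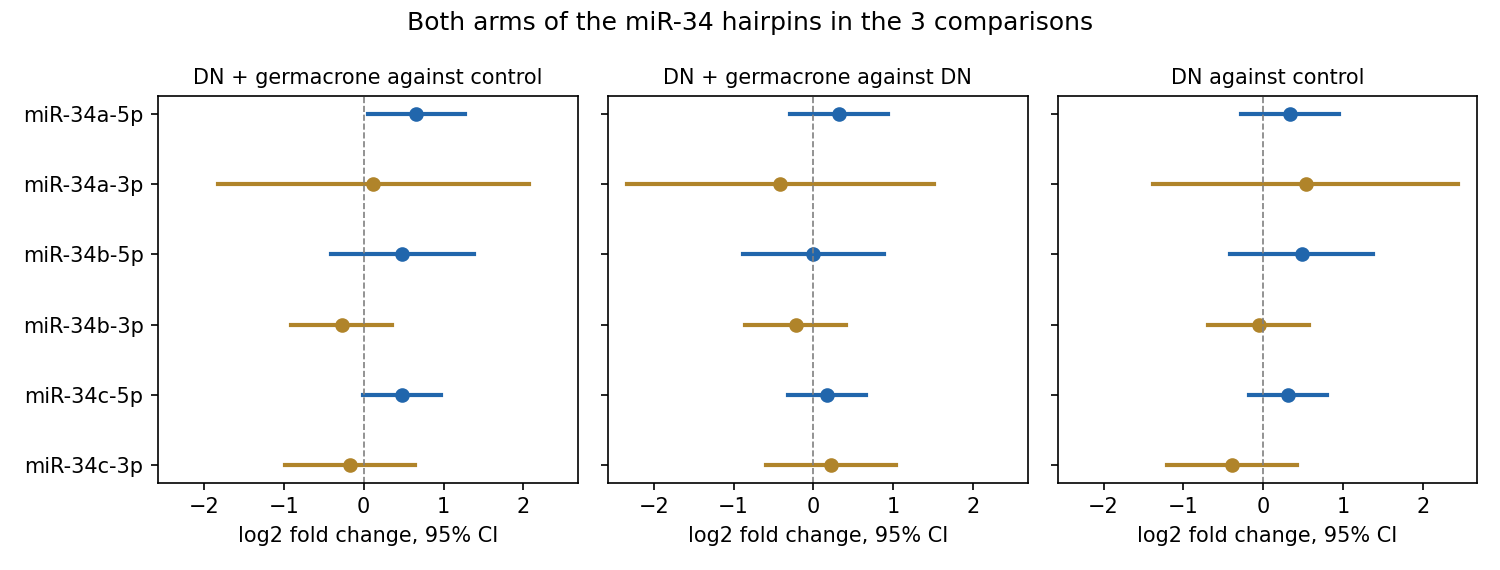
log2 fold change (horizontal axis) with its 95% interval for both arms of the 3 hairpins in each comparison, 5p arms in blue and 3p arms in gold, n = 6 libraries a group. The interval of mmu-miR-34a-5p in treated against control, 0.05 to 1.27, lies above 0, and the other intervals include 0; the adjusted p of every arm was over 0.05.

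**Figure D3:**
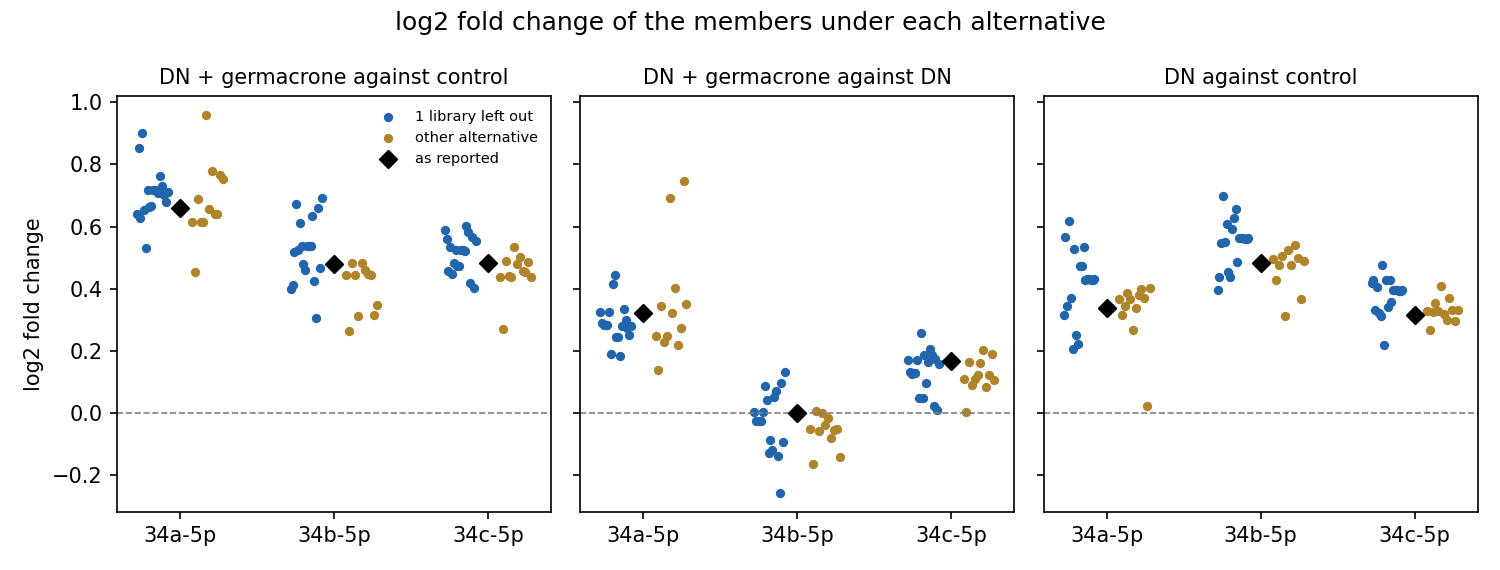
log2 fold change (vertical axis) of each member in each comparison as reported (diamonds), with 1 library left out (blue) and under every other alternative (gold). In treated against DN the value of miR-34b-5p scatters around 0, from -0.26 to 0.13, while those of miR-34a-5p run from 0.14 to 0.75.

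The sum of the 3 members was 1212 ± 130 CPM in treated, 993 ± 328 in DN and 788 ± 331 in control libraries (SD, n = 6 each), and it ran from 1024 to 1394 CPM in treated, from 701 to 1479 in DN and from 495 to 1312 in control libraries. The treated and DN libraries overlapped, as did the treated and control libraries, and no test was made of the sum. The log2FC was above 0 for 3 of 3 members in treated against control (49.8% of all entries), 2 of 3 in treated against DN (42.2%) and 3 of 3 in DN against control (56.5%). Relative to the median log2FC of all tested entries (-0.0035 in treated against control), miR-34a-5p stood at 0.66, miR-34b-5p at 0.48 and miR-34c-5p at 0.48 in that comparison. With library size as the only scaling that median was -0.20, and the members stood at 0.66 for miR-34a-5p, 0.47 for miR-34b-5p and 0.47 for miR-34c-5p relative to it. The comparisons share groups, so their directions are not independent of each other.

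The hairpins differed in the strand that was sequenced. For Mir34a, miR-34a-3p was 0% to 0.871% of the reads of both arms, with 5 to 71 reads in 15 libraries and a listed 0 in 3 libraries. For Mir34c, miR-34c-3p was 2.11% ± 0.788 of both arms in treated, 2.12% ± 0.705 in DN and 3.50% ± 1.43 in control libraries (SD, n = 6 each). For Mir34b the 3p strand held most of the reads on mouse-named rows, at 78.5% ± 8.45 in treated, 79.9% ± 9.89 in DN and 85.8% ± 6.60 in control libraries, and miR-34b-3p averaged 16.2 CPM over all libraries. The group ranges of these shares overlapped.

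**Figure D4:**
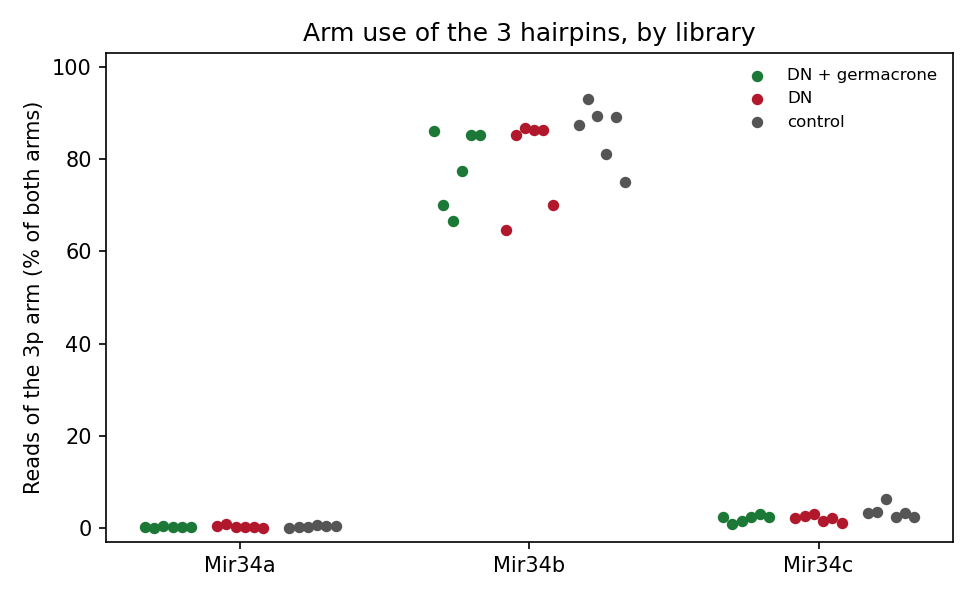
Reads of the 3p arm as a percentage of both arms (vertical axis) for each hairpin, 1 point a library, coloured by group. Mir34b lies between 64.5% and 93.1% and Mir34a and Mir34c between 0% and 6.29% in all 18 libraries.

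By the edgeR test none of the 3p strands passed in any comparison. In treated against control kidneys the log2FC was 0.12 (SE 0.930) for mmu-miR-34a-3p, -0.28 (SE 0.303) for mmu-miR-34b-3p and -0.17 (SE 0.388) for mmu-miR-34c-3p. In treated against DN kidneys it was -0.42 for miR-34a-3p, -0.22 for miR-34b-3p and 0.22 for miR-34c-3p. In DN against control kidneys it was 0.54 for miR-34a-3p, -0.06 for miR-34b-3p and -0.39 for miR-34c-3p. Adjusted p was 0.646 to 0.986 over these 9 values. DN 2 held 10.3 CPM of miR-34a-3p, 27.9 CPM of miR-34b-3p and 7.86 CPM of miR-34c-3p, the highest DN value of each. Treated 5 held 26.8 CPM of miR-34b-3p and 10.3 CPM of miR-34c-3p, the highest treated values.

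A pair of rows named for miR-34b-5p of the opossum (prefix mdo) affects how the Mir34b and Mir34c values can be read. Both rows held the same value in each library, and their sum was 26 to 117 reads, 1.46 to 7.13 times the reads of mouse miR-34b-5p. The sum averaged 11.1 ± 4.07 CPM in treated, 10.7 ± 3.72 in DN and 8.60 ± 2.56 in control libraries (SD, n = 6 each). It was 3.44% to 6.13% of miR-34c-5p in every library, and across the 18 libraries it had a Pearson r of 0.856 (permutation p = 2e-05, the smallest that 100000 resamples can give 2-sided; Benjamini-Hochberg adjusted p = 0.00018) and a Spearman rho of 0.794 (permutation p = 0.00016, adjusted p = 0.00144) with log2 CPM of miR-34c-5p. The Pearson r was 0.789 without DN 2 and treated 5, 0.878 within treated, 0.822 within DN and 0.870 within control libraries. This relation and the next, with miR-34b-5p, were computed after the values were seen, so their p-values do not measure chance. With miR-34b-5p the Pearson r was 0.396 (permutation p = 0.104, adjusted p = 0.187) and rho 0.426 (permutation p = 0.0789, adjusted p = 0.237). Its 8 to 33 reads a library carry a counting error of 17.4% to 35.4%, against 2.21% to 4.57% for miR-34c-5p. The part of that error in the lower r was not tested. How reads were given to the opossum-named rows is not stated in the labels, and its part in these values was not tested. If they were counted with the 5p strand of Mir34b, the 3p share of Mir34b would be 38.6% to 71.1%, so which strand of that hairpin is the major one depends on how these reads are counted.

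**Figure D5:**
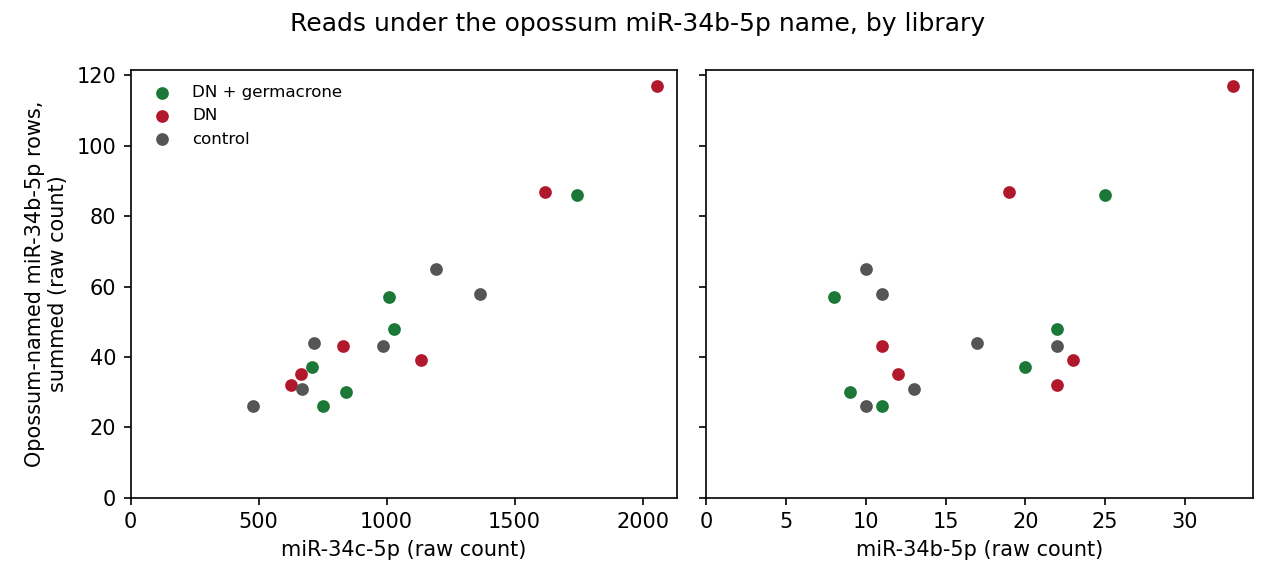
Summed raw count of the opossum-named miR-34b-5p rows (vertical axis) against the raw count of miR-34c-5p (left) and of mouse miR-34b-5p (right), 1 point a library, coloured by group. The points rise along a line with miR-34c-5p, at 3.44% to 6.13% of it. They scatter with miR-34b-5p, which had only 8 to 33 reads a library, at 1.46 to 7.13 times it.

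Among the mouse-named strands no relation passed after adjustment. miR-34b-5p and miR-34c-5p, which share a primary transcript, had a Pearson r of 0.424 (permutation p = 0.0798, adjusted p = 0.180) and a Spearman rho of 0.331 (permutation p = 0.177, adjusted p = 0.278) over 18 libraries, and the r was 0.389 without DN 1 and treated 3. Within groups it was 0.613 in treated, 0.298 in DN and 0.0168 in control libraries. miR-34a-5p had an r of 0.458 with miR-34c-5p (permutation p = 0.0566, adjusted p = 0.170; rho 0.327, permutation p = 0.186, adjusted p = 0.278) and 0.0309 with miR-34b-5p (permutation p = 0.908, adjusted p = 0.908; rho 0.0526, permutation p = 0.836, adjusted p = 0.969). Without control 3 and control 6 the r of miR-34a-5p was 0.318 with miR-34c-5p and 0.0366 with miR-34b-5p. The strands of Mir34a had an r of 0.504 (permutation p = 0.0382, adjusted p = 0.170) and a rho of 0.586 (permutation p = 0.0127, adjusted p = 0.0573), and an r of 0.565 without control 3 and control 6. For the strands of Mir34b the r was 0.0649 (adjusted permutation p = 0.894), for those of Mir34c 0.245 (adjusted permutation p = 0.490), and for miR-34b-3p with miR-34c-5p 0.0943 (adjusted permutation p = 0.894). In all, 9 such relations were computed, those with the opossum-named rows after the values were seen.

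The miRNAs whose levels were most like the members over the 18 libraries differed between members. They are given by Pearson r of log2 CPM, as a description over libraries that share depth and group, among 325 mouse names at a mean of at least 10 CPM. For miR-34a-5p they were miR-224-5p (0.760), the hypoxia-induced miR-210-3p (0.708) and miR-183-5p (0.592). For miR-34c-5p they were miR-182-5p (0.829) and miR-199a-5p and miR-199b-5p (0.787 each, on rows with the same values). For miR-34b-5p they were miR-340-3p (0.678), miR-338-3p (0.670) and miR-24-2-5p (0.638), each set against its 8 to 33 reads. Without DN 2 these values were 0.743, 0.681 and 0.540 for miR-34a-5p, 0.805 and 0.845 for miR-34c-5p, and 0.658, 0.651 and 0.614 for miR-34b-5p. Centred on the group means, they were 0.755, 0.586 and 0.599 for miR-34a-5p and 0.868 and 0.736 for miR-34c-5p. For miR-34b-5p the centred values were 0.626, 0.759 and 0.607. After centring, other miRNAs entered the first 3 of each member.

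miR-449a-5p, which carries the miR-34 seed and marks multiciliated cells, was listed at 5 reads in DN 3 and at 0 in the other 17 libraries. miR-449b and miR-449c-5p had no row under these mouse names, so no values can be given for them. Over the rows whose name occurs only once, 487 values were 5 reads and 62 were whole values from 1 to 4. A listed 0 therefore cannot be read as an absence of reads.

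Other miRNAs have been reported to be induced by p53 or matured with its help. Of 13 listed, 12 were in the table and 11 were tested. In each comparison 0 passed the edgeR test and 1 of 11 had an unadjusted p under 0.05. Over all entries 19.5% had such a p in treated against control, 3.72% in treated against DN and 7.59% in DN against control. In treated against control kidneys 5 of 11 had a log2FC above 0 (49.8% of all entries), with a median of -0.02, against -0.0035 over all entries. In treated against DN kidneys 8 of 11 were above 0 (42.2% of all entries) with a median of 0.14, against -0.05. In DN against control kidneys 4 of 11 were above 0 (56.5% of all entries) with a median of -0.0073, against 0.08 over all entries.

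Among them miR-141-3p, a miR-200 family member of epithelial cells, was at 353 ± 104 CPM in treated, 237 ± 108 in DN and 197 ± 60.4 in control kidneys, with a log2FC of 0.84 in treated against control (unadjusted p = 0.015, adjusted p = 0.186) and 0.58 in treated against DN (adjusted p = 0.800). miR-22-3p was at 11920 ± 2129 CPM in treated, 9325 ± 2206 in DN and 12230 ± 1311 in control kidneys, with a log2FC of 0.35 in treated against DN (adjusted p = 0.800) and -0.39 in DN against control (adjusted p = 0.529). miR-200c-3p, another miR-200 family member on this list, had a log2FC of -0.07 in treated against control kidneys. It had 0.13 in treated against DN and -0.20 in DN against control kidneys. miR-192-5p of the proximal tubule had a log2FC of 0.53 in treated against control and 0.39 in DN against control kidneys. For miR-194-5p, also a listed kidney tubule miRNA, these values were 0.16 and -0.0088. miR-139-5p had -0.27 in treated against control and -0.27 in treated against DN kidneys, and miR-145a-5p of smooth muscle had -0.15 in treated against control and -0.19 in DN against control kidneys. miR-143-3p, the other listed smooth muscle miRNA and also on this list, had 0.36 in treated against control, with 6 of 6 treated libraries above the control median, and -0.0073 in DN against control kidneys. miR-16-5p, whose maturation p53 aids in human cells, had -0.14 in treated against DN, and miR-141-3p 0.27 in DN against control kidneys. None of these values passed the threshold. miR-143-3p, miR-200c-3p and miR-194-5p lie outside the rule for naming and were chosen after their values were seen.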

How the data were processed

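Per the labels, kidney RNA was extracted with Trizol, made into TruSeq small RNA libraries, sequenced on an Illumina HiSeq and filtered with ACGT101-miR. Trimmomatic 0.32, BWA, SAMtools and edgeR are listed, per the submitters' processing notes. Neither the role of these programs nor the genome build or miRBase release was stated, and RefSeq and GENCODE coordinates are used only for the sequences. The deposited raw columns hold estimated counts (75.7% of values above 0 in named rows whole), and the deposited normalized columns hold a signal, the raw value scaled by the authors per library.

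Unnamed rows (0.0136% to 0.148% of a library's counts) were left out and estimated counts rounded. One edgeR 4.0.16 quasi-likelihood fit (legacy method, R 4.3.3) used all 18 libraries with group as the only factor. Low entries were removed with filterByExpr at a minimum count of 10 and a minimum total of 15. All 3 members were among the 619 entries left, which hold 99.972% of reads on named rows. TMM factors and Benjamini-Hochberg adjustment over all entries were used. CPM carry the TMM factors, and log2 CPM a prior count of 2. Intervals (95%) use the posterior quasi-dispersion. Correlations were tested by permutation (scipy 1.17.1). For a name on several rows the most abundant row was used in lists and ranks.

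The members, lists, tests and alternatives were chosen with earlier results of these data known. By rule, the text names the members, their opposite arms, the miR-449 miRNAs, the listed p53-linked miRNAs of smallest p (2 in each direction) and the 3 miRNAs most like each member. The alternatives tried were scaling by RLE or by library size alone, testing without a filter, 10 CPM in 6 libraries, DESeq2 1.42.0, limma-voom (limma 3.58.1), the edgeR 4 method, the replicate number as a block, only 2 groups, summed names, each library left out, and control 2, DN 2 and DN 3 left out. Added after seeing the data was limma on log2 of the authors' normalized columns plus 1.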

Additional observations from a re-analysis of the deposited data

Results flagged for a closer look

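miR-34a-3p, the minor strand of Mir34a, had 1 library far above the others in both untreated groups. In DN libraries the gap from DN 2, at 10.3 CPM and 71 reads, to the next library was 0.788 of the group's range, a gap past Dixon's critical value for 6 samples. In control libraries the gap from control 4, at 6.54 CPM and 32 reads, was 0.627 of the range. The same libraries were among the 3 highest of the untreated groups for miR-34a-5p, at 1175 and 1107 CPM. Of 21 group checks over the 6 strands and the opossum-named rows, 2 passed that value, and chance flags about 1 in 20.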

How the results depend on the processing

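Over the alternatives run, the log2FC of the members kept its sign in all 3 comparisons except for miR-34b-5p in treated against DN, which is near 0: it was 0.0050 with no filter, 6.4e-05 with limma-voom and -0.26 to 0.13 with 1 library left out. The call of miR-34a-5p in treated against control changed with limma-voom alone (log2FC 0.96, adjusted p = 0.00715); for that miRNA the other alternatives gave 0.45 to 0.90 without a call. The cause was not tested. As reported, 0 entries passed in each comparison by edgeR, with 121 in treated against control, 23 in treated against DN and 47 in DN against control at an unadjusted p under 0.05. Treated against DN gave 0 under every alternative run. Treated against control gave 18 with DESeq2, 106 with limma-voom, 3 with the edgeR 4 method, 56 with only the 2 groups, 50 without control 2, DN 2 and DN 3, and 0 to 7 with 1 library left out (7 without DN 2 and 3 without DN 3). DN against control gave 2 with the 10 CPM filter, 4 with DESeq2, 91 with limma-voom, 6 with the edgeR 4 method, 51 without control 2, DN 2 and DN 3, and 0 to 6 with 1 library left out (6 without DN 2, 6 without DN 3 and 1 without control 2). The replicate number as a block gave 0 calls in each comparison, and log2FC of miR-34a-5p of 0.78, 0.40 and 0.38 in treated against control, treated against DN and DN against control. Nothing in the labels pairs the numbers: 3 of 18 same-numbered pairs deviated together (r over 0.1), and 0 of 18 libraries correlated best with their own number. miR-34b-5p was not tested under the 10 CPM filter, which it does not reach. Depth limits miR-34b-5p and the 3p strands of Mir34a and Mir34c, which rest on 0 to 71 reads a library; counting error covers only part of their spread.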

Other observations

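A further list held miRNAs reported to target p53 itself. Of 6 listed, 5 were in the table and 4 were tested. In any comparison 0 passed the edgeR test and 0 had an unadjusted p under 0.05. Over all entries 19.5% had such a p in treated against control, 3.72% in treated against DN and 7.59% in DN against control. miR-30d-5p was at 29950 ± 7468 CPM in treated, 28620 ± 10630 in DN and 32960 ± 13190 in control kidneys, and miR-125b-5p at 2321 ± 323 in treated, 2435 ± 587 in DN and 2764 ± 780.0 in control kidneys (SD, n = 6 each). The log2FC in treated against control kidneys was -0.14 for miR-30d-5p, -0.25 for miR-125b-5p, 0.10 for miR-25-3p and 0.23 for miR-33-5p. The log2FC was above 0 for 2 of 4 in treated against control (49.8% of all entries) and 1 of 4 in treated against DN (42.2%). In DN against control it was above 0 for 2 of 4 (56.5% of all entries). The list's median was -0.02 in treated against control, -0.04 in treated against DN and -0.04 in DN against control, against -0.0035, -0.05 and 0.08 over all entries.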
